A study of Mus musculus with 4 samples.

Results

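The tumour necrosis factor (TNF) superfamily was examined as 40 genes, 17 ligands and 23 receptors, among the 50600 genes counted in T-helper 17 (Th17) cells. Members were taken by gene symbol, each matched to its Ensembl identifier, by a rule that uses family membership and no measured value. The cells were primary cells of the mouse strain C57BL/6NJ that the labels name Th17, the CD4+ T cell subset that makes interleukin 17. RNA was sequenced in 4 libraries, numbered as biological replicates 1 to 4, which form 1 group with no second treatment, genotype or time. The labels give 1 donor identifier for all 4 libraries, no age and no sex. They call the assay total RNA-seq, whereas the library protocol they point to is named for poly(A)+ RNA.

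Ligands of this family are mostly trimeric proteins on the cell surface, some of which are released by proteases. Their receptors signal through TRAF adaptors to NF-kappa-B and MAP kinases, and the receptors with a death domain can also start apoptosis or necroptosis. On T cells the family is known for costimulation (OX40, CD27, GITR, CD30, DR3), for help to B and dendritic cells through CD40 ligand, and for inflammatory signals through TNF and the lymphotoxins.

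Libraries held 24696730 to 37025016 fragments, the fewest in replicate 2. Levels are given as TPM, transcripts per 1000000, computed from fragments per base of exon. Comparisons between genes depend on the exon length used, here summed over all isoforms, which lowers genes with long unused exons. In these bulk samples, fewer cells of a type and less RNA per cell cannot be told apart. All 5 T cell markers stood at 100 TPM or more in every library, from Cd3e at 127 to Cd5 at 1843, and all 8 Th17 markers at 10 or more, from Il17a at 20.02 to Il17f at 694. Of 7 B cell markers 0 reached 1 TPM in every library, with a summed level of 0.280 to 0.893 TPM per library, Cd79a the highest at 0.343 and Ms4a1 and Pax5 without a fragment. Myeloid and dendritic markers summed to 12.5 to 17.1 TPM, with 2 of 12 at 1 TPM or more in every library, Cd74 the highest at 8.19 and Lyz2 and C1qa without a fragment. Markers of NK and CD8 cells summed to 14.8 to 22.4 TPM, with 2 of 8 at 1 TPM, Nkg7 the highest at 11.4 and Ncr1 without a fragment. Neutrophil and mast cell markers were highest for Kit at 2.43 with S100a8 at 0, stromal, endothelial and epithelial markers for Pecam1 at 3.24 with Pdgfra at 0, and the 3 erythroid markers had no fragment. Among 5 markers of innate lymphoid and gamma delta T cells, 2 reached 1 TPM in every library, Id2 at 336 TPM and Trdc at 5.17. Il1rl1 was at 0.0790, Tcrg-C1 at 0.0248 and Zbtb16 the lowest at 0.00489. The part of such cells in the levels below was not tested.

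A ligand or receptor was counted as present where its level was at least 1 TPM in each of the 4 libraries. Of the 40 genes 22 reached that level, 20 reached 10 TPM and 8 reached 100 TPM. Among 21764 protein-coding genes, 44.8% reached 1 TPM, 33.9% reached 10 TPM and 8.72% reached 100 TPM by the same rule. The median of the mean levels was 5.17 TPM over the ligands and 20.6 over the receptors, beside 0.275 over all protein-coding genes. These counts are descriptions, with no test. Another 10 members had fragments but stayed under 1 TPM in every library, Fasl and Tnfrsf8 passed 1 TPM in some libraries and not in others, and 6 had no fragment at all. Together the family held 4618 TPM ± 89.7 (SD, n = 4), or 0.462% of all transcripts on that scale.

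**Figure D1:**
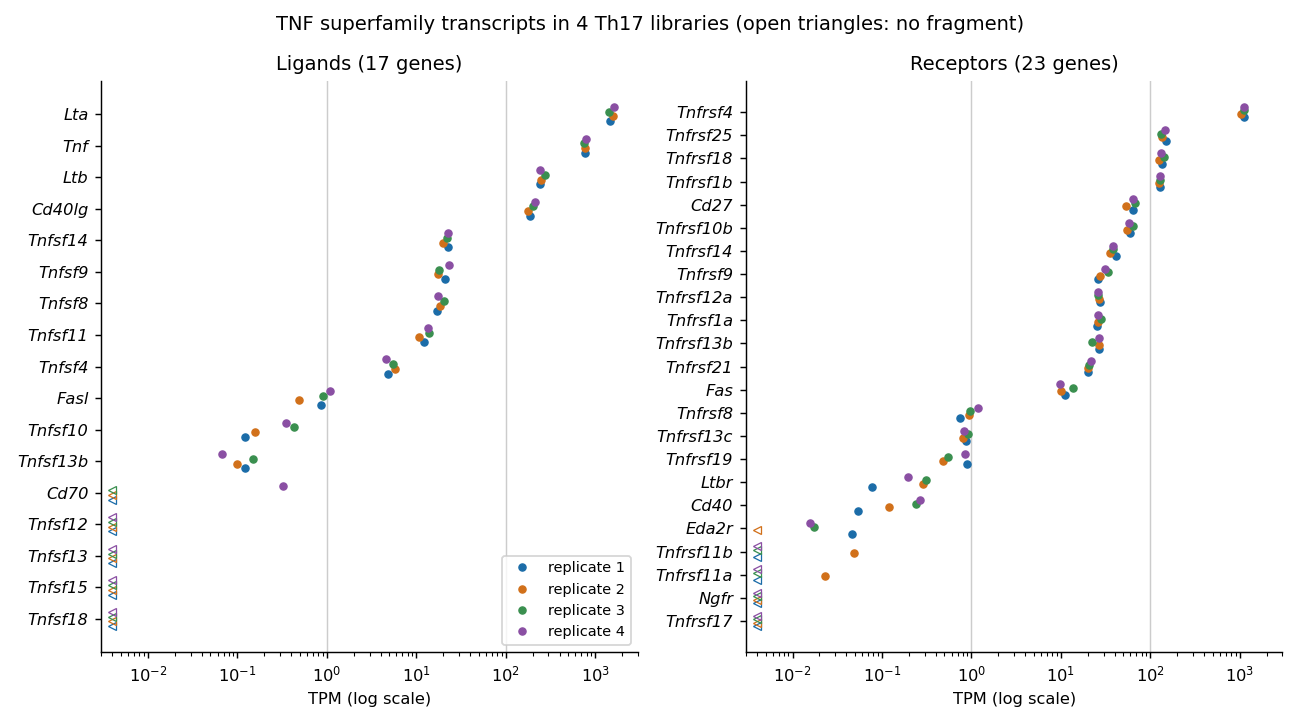
TPM on a log scale in each of the 4 libraries (points coloured by replicate) for the 17 ligands and the 23 receptors, ordered by mean level, with grey lines at 1 and 100 TPM. Lta and Tnf among the ligands and Tnfrsf4 among the receptors stand apart from the rest, and open triangles mark libraries without a fragment of the gene.

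The ligands were dominated by the lymphotoxins and Tnf. Their summed level was 2745, 2866, 2755 and 2930 TPM in replicates 1 to 4, a mean of 2824 ± 89.7 (SD, n = 4). Lta alone made up 54.2% of that sum, and Lta, Tnf and Ltb together 90.3%. The 3 genes lie side by side on chromosome 17, within 35194439 to 35205351 of mm10, in the major histocompatibility complex. The bases just before their starts are shown because the 3 highest ligands of the family are neighbours and their promoters can be read side by side. The sequences are RefSeq promoters on GRCm38.p6 (mm10), printed 5′ to 3′ along each gene's own strand and ending where the count files start the gene. Capitals mark TATAAA in Lta and Tnf and the kappa-B match in Ltb. Lta is at chr17:35205352-35205601 on the minus strand, Tnf at chr17:35202008-35202257 on the minus strand and Ltb at chr17:35194257-35194438 on the plus strand.
Lta: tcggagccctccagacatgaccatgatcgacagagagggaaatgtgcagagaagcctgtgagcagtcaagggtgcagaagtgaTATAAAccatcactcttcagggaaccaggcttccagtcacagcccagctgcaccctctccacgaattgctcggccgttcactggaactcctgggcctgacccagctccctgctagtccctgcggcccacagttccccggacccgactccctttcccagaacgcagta
Tnf: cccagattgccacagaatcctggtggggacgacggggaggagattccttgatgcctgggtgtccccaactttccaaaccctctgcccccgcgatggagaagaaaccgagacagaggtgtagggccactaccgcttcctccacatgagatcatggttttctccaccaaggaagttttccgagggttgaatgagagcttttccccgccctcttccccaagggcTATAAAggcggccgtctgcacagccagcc
Ltb: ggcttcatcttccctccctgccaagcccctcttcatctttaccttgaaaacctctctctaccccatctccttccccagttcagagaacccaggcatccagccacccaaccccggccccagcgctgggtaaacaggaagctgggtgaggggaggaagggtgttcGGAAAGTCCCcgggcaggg
In Tnf the TATAAA began 29 bases before the RefSeq start, and in Lta 167 bases before it. In Ltb the kappa-B match began 87 bases before the RefSeq start and read on the minus strand. Its first letters on the printed strand also spell GGAAA, the core that NFAT factors bind, so the matches overlap. RefSeq starts Ltb 68 bases inside the gene as counted here, and those bases are not printed.

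Promoters of 32 of the 40 members were found in the RefSeq table by symbol. Tnfsf4, Tnfsf9, Tnfsf12, Cd40lg, Cd70, Tnfrsf10b, Tnfrsf11b and Cd40 were not among them. The full window, 250 bases before to 50 after the start, was searched on both strands for TATAAA, for TGANTCA (the AP-1 motif), for the NFAT core GGAAA and for the kappa-B motif. A member was counted where any of its RefSeq promoters held the motif, whereas the percents are over single promoters. A member with several promoters had more chances to match, so counts of members and percents are not like measures. TATAAA was found in 6 of 32 members (Tnf, Lta, Tnfsf11, Tnfsf18, Tnfrsf17 and Eda2r) and in 13.6% of all 32851 promoters. The AP-1 motif was in 6 members (Tnfsf13, Tnfsf13b, Tnfsf14, Tnfrsf8, Tnfrsf9 and Fas) and in 7.81% of all promoters. GGAAA was in 25 members and in 61.3% of all promoters. The kappa-B motif was in 3 members (Ltb, Tnfrsf8 and Tnfrsf9) and in 4.51% of all promoters. These matches describe letters in the window and were not set against the levels: members with TATAAA included Lta and Tnf, but also Tnfsf18 and Tnfrsf17, which had no fragment.

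Lta encodes lymphotoxin alpha, which is secreted as a homotrimer or held at the surface by lymphotoxin beta. Its level was 1477, 1594, 1443 and 1606 TPM in replicates 1 to 4, with a mean of 1530 ± 82.0 (SD, n = 4). Replicates 2 and 4 were above replicates 1 and 3, and Lta was number 69 among protein-coding genes by mean level. Tnf, the inflammatory cytokine that gives the family its name, stood at 760, 771, 752 and 788 TPM, with a mean of 768 ± 15.7 (SD, n = 4). It ranked 171 among protein-coding genes and varied little between libraries. Ltb, the membrane-bound partner of lymphotoxin alpha, was at 241, 250, 276 and 244 TPM, with a mean of 253 ± 16.2 (SD, n = 4) and its highest value in replicate 3. On mean level Lta was 1.99-fold above Tnf, and Tnf 3.04-fold above Ltb, and the ranges of the 3 genes did not overlap.

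Cd40lg, the helper ligand that acts on CD40 of B cells and dendritic cells, was the only other ligand above 100 TPM. Its level was 189, 178, 203 and 210 TPM, with a mean of 195 ± 14.0 (SD, n = 4). Replicates 3 and 4 were above replicates 1 and 2. Cd40lg lies on the X chromosome, and sex-linked transcripts also set replicates 1 and 2 apart from replicates 3 and 4. Xist, transcribed from the inactive X, was at 186, 161, 0.687 and 0.721 TPM, and the Y-linked Ddx3y at 0.442, 0.446, 88.6 and 83.2. The part of this difference in the level of Cd40lg was not tested.

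A second tier of ligands lay between 10 and 25 TPM. Tnfsf14 (LIGHT), which binds the herpesvirus entry mediator HVEM and the lymphotoxin beta receptor, was at 22.3, 19.7, 21.7 and 22.6 TPM. Tnfsf9, the costimulatory ligand of CD137, was at 20.9, 17.5, 18.2 and 23.1 TPM. Tnfsf8, the ligand of CD30, was at 16.9, 18.4, 20.3 and 17.5 TPM. The ranges of these 3 ligands overlapped between neighbours in the order, with means of 21.6 ± 1.29, 19.9 ± 2.58 and 18.3 ± 1.47 (SD, n = 4). Tnfsf11 (RANKL), which drives osteoclast formation, was at 12.2, 10.7, 13.9 and 13.5 TPM, with a mean of 12.6 ± 1.43 (SD, n = 4), below all of them in every library. Tnfsf4, the OX40 ligand, was lower still, at 4.79, 5.70, 5.56 and 4.63 TPM, with a mean of 5.17 ± 0.540 (SD, n = 4).

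The remaining 8 ligands were at or under about 1 TPM. Fasl, which triggers death through Fas, was at 0.854, 0.493, 0.908 and 1.09 TPM, a mean of 0.836 ± 0.249 (SD, n = 4) from 65 fragments in all. Tnfsf10 (TRAIL), another death ligand, was at 0.122, 0.155, 0.432 and 0.348 TPM, a mean of 0.264 ± 0.1497 (SD, n = 4) from 7, 6, 22 and 20 fragments. Replicates 3 and 4 were above replicates 1 and 2 for Tnfsf10, which the filter of the test of spread between libraries left out. Tnfsf13b (BAFF), the survival factor of B cells, had 29 fragments and a mean of 0.109 ± 0.0353 TPM (SD, n = 4). Cd70, the ligand of CD27, had 3 fragments in total (exact Poisson 95% interval 0.619 to 8.77), all of them in replicate 4. Such an interval allows for counting error alone.

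No fragment was counted for Tnfsf12 (TWEAK), Tnfsf13 (APRIL), Tnfsf15 (TL1A) and Tnfsf18 (the GITR ligand). A count of 0 allows up to 3 fragments, which in the shallowest library is 0.122 TPM for Tnfsf15 and 0.198 TPM for Tnfsf18. The limit is weaker for Tnfsf12 and Tnfsf13, whose exons overlap those of the readthrough gene Tnfsfm13. Of the exon bases of Tnfsf12, 731 of 1515 are shared, and of Tnfsf13, 983 of 1637. Fragments in shared exons may not have been assigned, and over the bases of their own the limits are 0.522 TPM for Tnfsf12 and 0.626 for Tnfsf13. These limits assume that fragments would cover shared and unshared exon bases evenly. Tnfsfm13 was also without a fragment in any library.

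Of the 12 steps between neighbouring ligands in this order, 8 separated ranges that did not overlap over the 4 libraries. The 4 that overlapped were Tnfsf14 with Tnfsf9, Tnfsf9 with Tnfsf8, Tnfsf10 with Tnfsf13b, and Tnfsf13b with Cd70. Ligands with no fragment were not ordered.

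Tnfrsf4 stood far above the other receptors. The summed receptor level was 1820, 1711, 1825 and 1822 TPM, a mean of 1795 ± 55.7 (SD, n = 4), with replicate 2 below the other libraries. Tnfrsf4 alone made up 60.9% of that sum. At 1 TPM in every library there were 13 of 23 receptors, and 12 of them reached 10 TPM.

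Tnfrsf4 encodes OX40, which sustains the survival of activated T cells. Its level was 1105, 1044, 1107 and 1114 TPM, with a mean of 1092 ± 32.5 (SD, n = 4), and it ranked 107 among protein-coding genes. It was 7.77-fold above the next receptor on mean level, with no overlap. Tnfrsf25 (DR3), a costimulatory receptor with a death domain, was at 149.9, 136, 132 and 145 TPM. Tnfrsf18 (GITR), also costimulatory, was at 133, 124, 143 and 132 TPM. Tnfrsf1b, the TNF receptor without a death domain, was at 128, 124, 127 and 129.6 TPM. The means of these 3 receptors were 141 ± 8.24, 133 ± 7.89 and 127 ± 2.25 TPM (SD, n = 4), and their ranges overlapped between neighbours.

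Cd27, a costimulatory receptor of naive and memory T cells, was at 64.2, 53.3, 67.2 and 63.3 TPM, with the lowest value in replicate 2. Of its exon bases, 129 are shared with the microRNA gene Mir8113. Tnfrsf10b, the TRAIL receptor that signals death in mice, was at 59.4, 54.5, 63.2 and 57.1 TPM. The ranges of Cd27 (mean 62.0 ± 6.04) and Tnfrsf10b (mean 58.6 ± 3.72) overlapped. Tnfrsf14, the herpesvirus entry mediator, was at 41.5, 35.1, 37.9 and 37.8 TPM, with a mean of 38.1 ± 2.63 (SD, n = 4), and did not overlap with either neighbour in the order.

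Next came 4 receptors whose ranges overlapped from one to the next. Tnfrsf9 (CD137), an inducible costimulatory receptor, was at 25.7, 27.5, 33.7 and 30.7 TPM, higher in replicates 3 and 4 than in replicates 1 and 2. Tnfrsf12a, the receptor of TWEAK, was at 27.4, 26.9, 26.3 and 26.1 TPM, and Tnfrsf1a, the TNF receptor with a death domain, was at 25.2, 26.1, 28.1 and 26.0. Tnfrsf13b (TACI), a receptor of BAFF and APRIL known mainly from B cells, was at 26.7, 26.8, 22.6 and 26.9 TPM, lowest in replicate 3. The level of Tnfrsf13b was 25.7 ± 2.11 TPM (SD, n = 4) in libraries in which the 7 B cell markers together summed to under 1 TPM. The means of Tnfrsf9, Tnfrsf12a and Tnfrsf1a were 29.4 ± 3.55, 26.7 ± 0.588 and 26.3 ± 1.22 TPM (SD, n = 4).

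Tnfrsf21 (DR6), a death-domain receptor studied in T cells and neurons, was at 19.9, 20.02, 20.9 and 21.6 TPM, with a mean of 20.6 ± 0.792 (SD, n = 4). Fas, the death receptor of Fas ligand, was at 11.2, 10.1, 13.7 and 9.77 TPM, with a mean of 11.2 ± 1.80 (SD, n = 4) and its highest value in replicate 3. Fas is the 1 receptor between the thresholds of 1 and 10 TPM, through its value in replicate 4.

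Below Fas the order dropped 11.7-fold to Tnfrsf8 (CD30), at 0.744, 0.947, 0.957 and 1.19 TPM, with a mean of 0.960 ± 0.184 (SD, n = 4). Tnfrsf13c, the BAFF receptor, followed with a mean of 0.854 ± 0.0514 TPM (SD, n = 4), and Tnfrsf19 (TROY) with 0.694 ± 0.211. The ranges of these 3 overlapped. Ltbr, the lymphotoxin beta receptor of stromal and myeloid cells, was at 0.218 ± 0.105 TPM from 19 fragments. Cd40, the receptor of B cells and dendritic cells for CD40 ligand, was at 0.172 ± 0.102 TPM from 2, 3, 8 and 10 fragments.

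Eda2r, a receptor of ectodysplasin on the X chromosome, had 3, 0, 1 and 1 fragments in replicates 1 to 4. Tnfrsf11a (RANK) and Tnfrsf11b (osteoprotegerin, a secreted decoy receptor of RANKL) had 1 fragment each, both in replicate 2. Ngfr, the neurotrophin receptor of the family, and Tnfrsf17 (BCMA), a receptor of plasma cells, had none, which allows up to 0.119 and 0.502 TPM in the shallowest library. Of the 20 steps between neighbouring receptors, 9 separated ranges that did not overlap and 11 did not separate them.

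Each ligand was then set against its receptors in the same library, over 26 ligand and receptor pairs known from textbooks. Both partners were at 1 TPM in every library in 8 pairs, only the receptor in 8, only the ligand in 6 and neither in 4. The receptor was the higher of the pair in 4 of 4 libraries for 12 pairs and the ligand for 13, and in the last pair, Tnfsf13 with Tnfrsf17, both were at 0. Among the 13, Tnfsf13b with Tnfrsf17 is not resolved, since 0 fragments of Tnfrsf17 allow up to 0.502 TPM and Tnfsf13b was at 0.0667 to 0.151. In Tnfsf10 with Tnfrsf11b the receptor had 1 fragment and the ligand 55. Among the 12, Tnfsf12 with Tnfrsf12a and Tnfsf13 with Tnfrsf13b carry a limit. Fragments of both ligands in exons shared with Tnfsfm13 may not have been assigned. Both pairs are also among the 8 with only the receptor at 1 TPM. Ratios are given as log2 of receptor TPM + 1 over ligand TPM + 1, which understates the difference where a partner is low. For undetected partners its size is set by the added 1. With 4 libraries the exact two-sided sign-flip test cannot go below p = 0.125, which all 25 pairs with a difference had, before and after Benjamini-Hochberg adjustment. No pair could pass 0.05 in this design.

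Pairs led by the ligand were mainly those of TNF, the lymphotoxins, CD40 ligand, RANKL and CD30 ligand. Tnf was 29.2 ± 1.65-fold above Tnfrsf1a and 6.04 ± 0.136-fold above Tnfrsf1b (SD over 4 libraries, TPM). Lta was 58.3 ± 4.76-fold above Tnfrsf1a, 40.4 ± 4.37-fold above Tnfrsf14 and 12.0 ± 0.699-fold above Tnfrsf1b. Ltb stood far above Ltbr, with a mean log2 difference of -7.71 ± 0.09, and Cd40lg far above Cd40, with -7.39 ± 0.07 (SD, n = 4). Both of those receptors had fewer than 11 fragments in any library. Tnfsf8 was 19.5 ± 3.48-fold above Tnfrsf8, and the ratio ranged from 14.7 to 22.7 over the libraries. Tnfsf11 was above both of its receptors, with log2 differences of -3.75 ± 0.17 for Tnfrsf11a and -3.74 ± 0.19 for Tnfrsf11b. Tnfsf14 was above Ltbr, at -4.22 ± 0.19. With 0.1 in place of the added 1, the differences were -6.91 and -6.84 for Tnfsf11 with Tnfrsf11a and Tnfrsf11b, -9.71 for Ltb with Ltbr, -9.57 for Cd40lg with Cd40 and -6.16 for Tnfsf14 with Ltbr.

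Pairs led by the receptor were mainly those of OX40, DR3, GITR, CD27, TRAIL, Fas and the BAFF system. Tnfrsf4 was 213 ± 26.9-fold above Tnfsf4, and the ratio lay between 183 and 241 in the 4 libraries. Tnfrsf25 was at least 1115-fold above Tnfsf15 and Tnfrsf18 at least 624-fold above Tnfsf18, taking 3 fragments of the undetected ligand in each library and the lowest ratio of the 4. By the same bound over their own exon bases, Tnfrsf12a was at least 51.6-fold above Tnfsf12 and Tnfrsf13b at least 42.8-fold above Tnfsf13. These bounds for Tnfsf12 and Tnfsf13 assume even coverage of shared and unshared exon bases, which was not tested. Transcripts lying mostly in shared exons could be missed. Fas was 14.4 ± 4.76-fold above Fasl. Tnfrsf10b exceeded Tnfsf10 by 5.56 ± 0.14 on the log2 scale, and Cd27 exceeded Cd70 by 5.87 ± 0.23. Tnfrsf13b exceeded Tnfsf13b by 4.59 ± 0.16 and Tnfrsf13c exceeded it by 0.74 ± 0.02. With 0.1 added, these 4 differences were 7.42, 8.75, 6.96 and 2.20.

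In 2 pairs ligand and receptor were near each other. Tnfrsf14 was 1.76 ± 0.0774-fold above Tnfsf14, and Tnfrsf9 was 1.496 ± 0.279-fold above Tnfsf9, in 4 of 4 libraries each. These ratios depended on the division by gene length. With CPM, counts scaled to library size alone, in place of TPM, the mean log2 difference went from 0.79 to 0.13 for Tnfsf14 with Tnfrsf14, and from 0.54 to 1.58 for Tnfsf9 with Tnfrsf9, in the same direction.

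**Figure D2:**
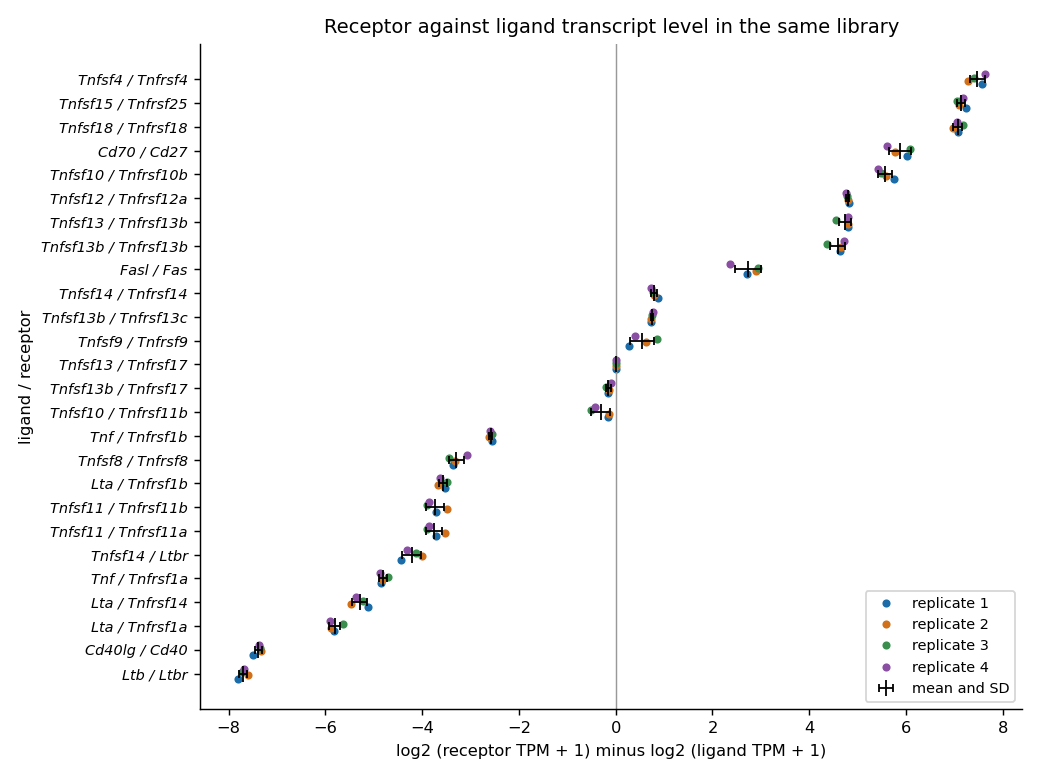
Log2 of receptor over ligand, from TPM + 1, in each library (points coloured by replicate) with the mean and SD over 4 libraries (black), for the 26 pairs. OX40 with its ligand is at the top at 7.47 and lymphotoxin beta with its receptor at the bottom at -7.71, but the added 1 sets the top of the order: with 0.1, DR3 with Tnfsf15 is at 10.46 and OX40 with its ligand at 7.70. The points of a pair lie close together compared with the distance between pairs.

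Many of the 40 genes are neighbours in the genome. They lie on 13 chromosomes, 9 of them on chromosome 4 and 8 on chromosome 17, and 19 members lie within 100 kb of another member, in 8 clusters. Among neighbours with more than 3 fragments each, mean levels differed from 1.08-fold (Tnfsf9 and Tnfsf14) to 285-fold (Cd27 and Ltbr). Differences between members that are not neighbours were not set beside these. Tnf and Lta are separated by 1.158 kb and differed 1.99-fold. Tnfrsf4 and Tnfrsf18, separated by 9.55 kb on chromosome 4, were both above 100 TPM and differed 8.21-fold on mean level. Tnfrsf1b and Tnfrsf8, separated by 20.3 kb on the same chromosome, differed 132-fold. On chromosome 6, Tnfrsf1a lies 35.5 kb from Ltbr and was 121-fold above it, and Cd27, on the other side, was 285-fold above Ltbr, whose 19 fragments have an exact Poisson 95% interval of 11.4 to 29.7.

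The ligand clusters showed the same mixture. On chromosome 17, in 57105385 to 57194189 of mm10, Tnfsf9 and Tnfsf14 had means of 19.9 and 21.6 TPM, with Cd70 and its 3 fragments between them. On chromosome 1 Tnfsf4 was detected and Tnfsf18, 76.2 kb away, was not. On chromosome 4 Tnfsf8 was detected and Tnfsf15, 86.2 kb away, was not. On chromosome 11 neither Tnfsf12 nor Tnfsf13 had a fragment.

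**Figure D3:**
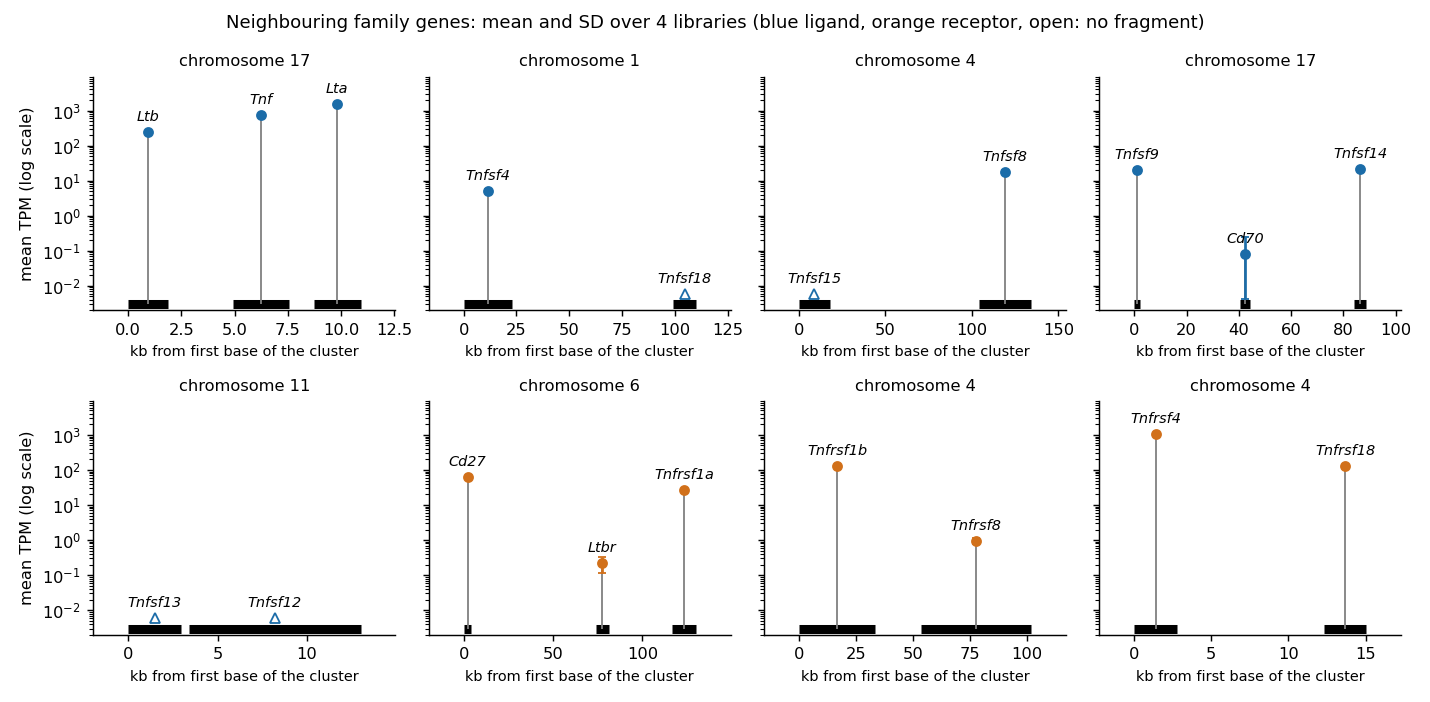
Mean TPM on a log scale (points, with SD over 4 libraries) of the 19 members that lie within 100 kb of another, drawn in 8 panels at their distance in kb from the first base of the cluster, with black bars for the gene spans. Ligands are blue, receptors orange and open triangles have no fragment; Ltbr lies between Cd27 and Tnfrsf1a and more than 100-fold below each.

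With a single group, the only test across genes asked whether a gene spread between the 4 libraries more than other genes of its abundance. edgeR's quasi-likelihood fit was used, with Benjamini-Hochberg adjustment over 11847 genes. It tested 25 of the 40 members, 9 ligands and 16 receptors, and its filter left out the other 15. With a filter of 10 fragments in total, 30 members were tested and 0 were called. Of the 25, 0 were called at an adjusted p under 0.05, beside 0.304% of all genes tested (36 genes). At an unadjusted p under 0.05 there were 6 of the 25 members (24.0%), Lta, Ltb, Cd40lg, Tnfrsf9, Tnfrsf25 and Cd27, beside 5.69% of all genes. Limma-trend and DESeq2's dispersion outliers also called 0 members, beside 40 and 65 genes overall. The median of a member's spread over the spread fitted for its abundance was 1.5, beside 0.804 over all genes tested.

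Tnfrsf9 had the smallest adjusted p of the family, 0.448 by edgeR's quasi-likelihood test, with values of 87.4% to 115% of its mean over the libraries. It was higher in replicates 3 and 4, the libraries with Ddx3y, than in replicates 1 and 2, and the part of sex in this was not tested. Ltb followed (adjusted p = 0.515 by the same edgeR test), with replicate 3 at 109% of its mean, and Lta (adjusted p = 0.610 by edgeR), whose coefficient of variation of 5.36% stood beside a counting error of 0.705%. For Cd27 the adjusted p was 0.707, and for Cd40lg and Tnfrsf25 it was 0.837, by edgeR. Coefficients of variation were among the lowest for Tnf, 2.04% beside a counting error of 0.914%, and for Tnfrsf1b, 1.77% beside 1.47%. Relative to the spread fitted for its abundance, Tnf stood at 0.766 and Tnfrsf1b at 0.372, beside a median of 0.804 over all genes tested. None of these differences between libraries passed the threshold, and each describes only these 4 libraries.

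**Figure D4:**
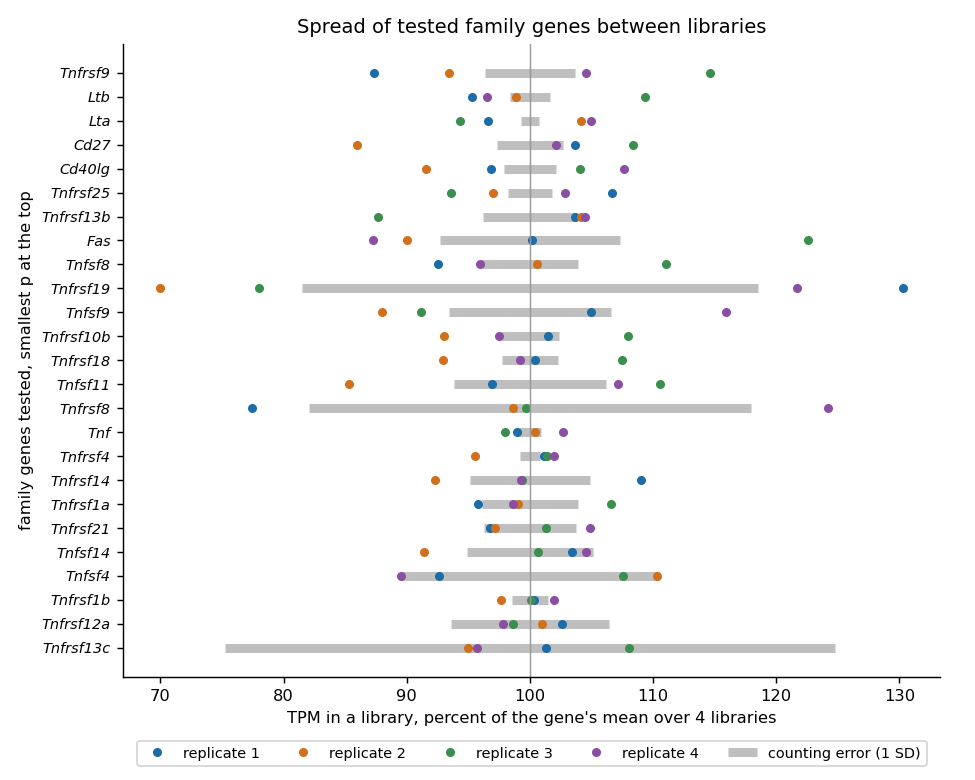
TPM in each library as a percent of the gene's mean (points coloured by replicate) for the 25 members tested, ordered by p with the smallest at the top, and the counting error as 1 SD on either side (grey bars). Several points of Tnfrsf9, Ltb, Lta and Cd27 lie outside the counting error, while those of Tnfrsf12a and Tnfrsf13c lie within it.

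Genes that carry or modify the signals of the family were read from 6 lists with 56 genes. Of 8 further genes of the family or named with it, which include the TNF-induced Tnfaip8 and the adaptor Edaradd, 5 were at 1 TPM in every library, with Tnfrsf26 at 36.1 ± 3.45, Relt at 33.8 ± 1.67 and Tnfrsf22 at 29.2 ± 0.941 TPM (SD, n = 4) the highest. Tnfrsf22, Tnfrsf23 and Tnfrsf26 are close paralogs. By the counting program's default, fragments that align to several of them are left out, so their levels are uncertain and may be too low. Eda, which encodes the ligand of Eda2r, and Edar had no fragment.

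All 20 adaptors and ubiquitin ligases were at 1 TPM in every library and 18 at 10 TPM. The highest were Traf4 at 160 ± 0.736, Birc3, a ubiquitin ligase bound by TRAF adaptors, at 123 ± 4.95, and Traf3, which restrains the alternative NF-kappa-B pathway, at 120.0 ± 4.81 TPM (SD, n = 4). Traf5 was the lowest at 7.51 ± 0.618.

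Death signalling was present in 9 of 10 genes. Cflar, the inhibitor of caspase 8, was the highest at 88.8 ± 3.59 TPM, followed by Daxx at 73.5 ± 1.48 and Ripk3, the kinase of necroptosis, at 66.2 ± 4.75 (SD, n = 4). Mlkl, which executes necroptosis, was the lowest, at 0.359, 1.13, 0.494 and 1.35 TPM. All 9 genes of negative feedback on NF-kappa-B were present, led by Nfkbia, the inhibitor I-kappa-B alpha, at 825 ± 30.0 TPM, Otulin at 134 ± 4.10 and Tnip2 at 101 ± 1.77, with N4bp1 the lowest at 24.1 ± 0.864.

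Genes that process and shed the ligands and receptors were at 1 TPM in 5 of 7 cases. Furin, a proprotein convertase, was at 511 ± 15.0 TPM, Adam10 at 101 ± 2.03 and Adam17, the protease that releases TNF, at 42.7 ± 1.89 (SD, n = 4), while Timp3, an inhibitor of Adam17, had no fragment. Tnfrsf14 has partners outside the family, of which Btla, an inhibitory receptor, was at 281, 250, 262 and 285 TPM, 7.08-fold above Tnfrsf14 on mean level, and Cd160 was at 0.401 ± 0.190. In the test of spread between libraries 50 of these 56 genes were tested and 0 were called, with 3 at an unadjusted p under 0.05 by edgeR, Tnfrsf26 and Btla among them.

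**Figure D5:**
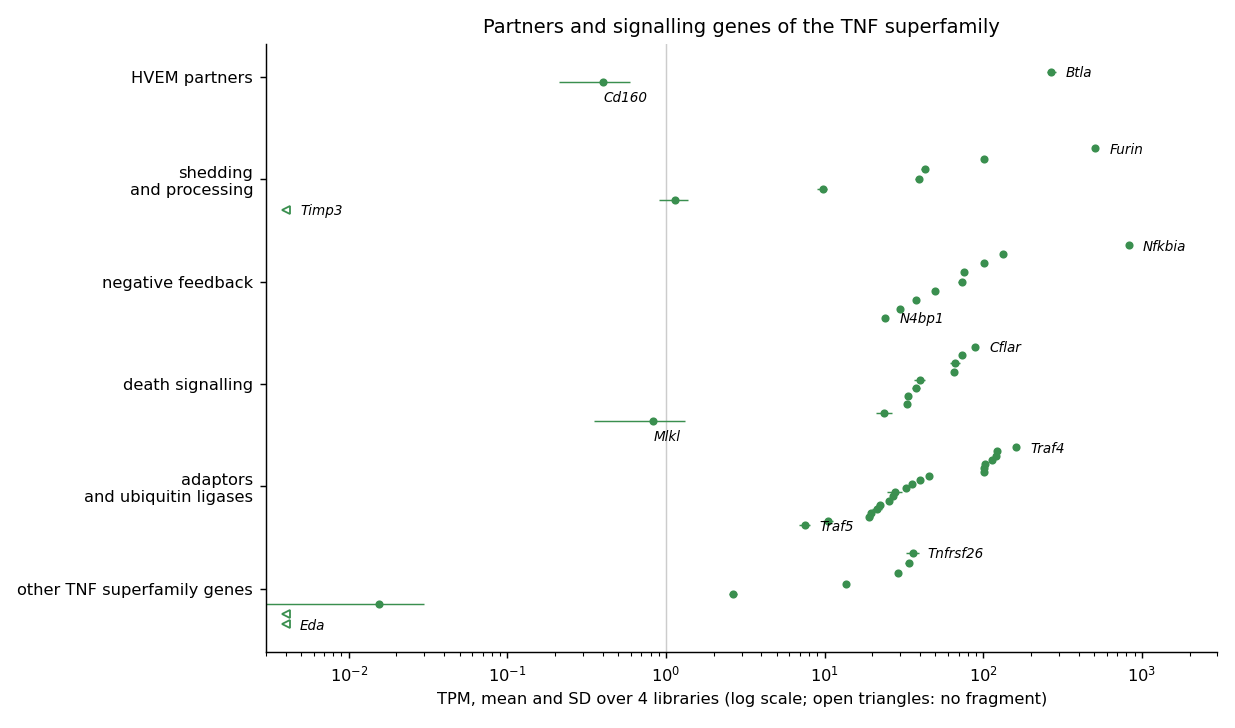
Mean TPM on a log scale with SD over 4 libraries for the genes of the 6 lists of partners and signalling genes, with the highest and lowest of each list named and a grey line at 1 TPM. Nfkbia at 825 and Furin at 511 are the highest, and Timp3, Eda and Edar (open triangles) have no fragment.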

How the data were processed

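RNA of Th17 cells was measured in 4 libraries, all in 1 group. The deposited values are raw fragment counts per gene. Per the file headers, they were made with featureCounts 1.4.6-p4 over exons of GENCODE M13 on paired-end alignments, with both ends aligned and strand option 2 (reverse). Per the labels the build is mm10. The sources used here name no aligner version. By the program's default, fragments that overlap several genes or align to several places are left out, and the headers set nothing else. The headers also carry a tag of 16 hr that the labels do not explain.

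Symbols came from GENCODE M21 and matched 50376 of 50600 genes. TPM was computed as count over the deposited summed exon length of all isoforms, scaled to 1000000 per library, which lowers genes with long unused exons. Libraries held 24696730 to 37025016 fragments, and 3 fragments served as the floor, or 0.275 to 0.409 TPM for a gene of 1 kb. Replicates were taken from the labels, which do not say how many animals they came from, so p-values measure the spread between these libraries, part of which may be technical. Xist and Ddx3y separate replicates 1 and 2 from 3 and 4 as female from male cells, so at least 2 animals contributed. The 40 members and all lists were chosen with earlier results of these data known. The text names all 40 members, with values per library for those at 10 TPM or on the X chromosome, the 3 highest and the lowest of each pathway list, and the highest and lowest of each marker list. All 5 markers of innate lymphoid and gamma delta T cells are also named.

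Spread between libraries was tested in R 4.3.3 with edgeR 4.0.16 (an intercept-only quasi-likelihood fit with TMM, filterByExpr and a robust prior). The ratio of each residual quasi-dispersion to its trended prior was compared with an F distribution, upper tail, with 24.8 prior degrees of freedom. The fit was tested on simulated data. Pairs were compared by an exact two-sided sign-flip test on log2(TPM + 1). Alternatives were the longest transcript as length, CPM, TPM rescaled to nuclear protein-coding genes, the mean as detection rule, a pseudocount of 0.1, DESeq2 1.42.0 size factors and dispersion outliers, another filter, a prior that is not robust, limma 3.58.1, and each replicate left out. Exon bases shared with no other gene were added as a length after seeing the data. A planned description of proteins was not run. Other work used Python 3.11.15 with matplotlib 3.10.9, scipy 1.17.1, pandas 2.3.3 and numpy 2.4.6.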

Additional observations from a re-analysis of the deposited data

Results flagged for a closer look

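In groups of 4 libraries, a value was looked at again where the gap from 1 library to the nearest of the others took up most of the range. Of 112 values 7 met this (6.25%), and chance alone would give about 1 in 20.

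Tnfrsf4 was lower in replicate 2, at 1044 TPM beside 1105 to 1114 in the others, a gap of 0.873 of the range. The summed level of all receptors followed it, at 1711 TPM in replicate 2 beside 1820 to 1825, a gap of 0.952. Replicate 2 is also the shallowest library, and the part of depth was not tested. Tnfrsf13b was lower in replicate 3, at 22.6 TPM beside 26.7 to 26.9 (0.953), and so was its log2 ratio to Tnfsf13, at 4.56 beside 4.79 to 4.80 (0.956), which rests on the same receptor because Tnfsf13 had no fragment. The summed level of all 40 members was higher in replicate 4, at 4753 TPM beside 4564 to 4580 (0.918). Among the signalling genes, Fadd, the adaptor of death receptors, was higher in replicate 2, at 20.5 TPM beside 19.3 to 19.4 (0.836), and Map3k14, the kinase of the alternative NF-kappa-B pathway, was higher in replicate 1, at 48.0 TPM beside 45.0 to 45.3 (0.897).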

How the results depend on the processing

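The counts of ligands (9) and receptors (13) at 1 TPM, and of pairs led by the receptor (12), kept their values under every alternative run for them. Members at 100 TPM numbered 8, but 7 with the longest transcript as length and 5 with CPM in place of TPM. Ligands at 10 TPM numbered 8, but 7 with the longest transcript and 6 with CPM. Receptors at 10 TPM numbered 12, but 11 with CPM, and 13 when rescaled, by the mean or without replicate 4. The summed ligand level was 2246 TPM with the longest transcript as length and 3001 when rescaled to nuclear protein-coding genes, and the summed receptor level 1907 when rescaled. The median gene moved by -0.13 and 0.09 on the log2 scale in those settings, the shift built into each. Member means moved 0.754-fold (Tnfsf9) to 1.18-fold (Cd27) with the longest transcript. Genes called for spread between libraries numbered 36, but 17 without the robust prior, 65 by DESeq2's dispersion outliers and 15 (without replicate 4) to 37 (without replicate 3) with 1 library left out, and the cause was not tested. Members called were 0 in all of these. No pair ratio changed direction. The order of levels was not counted again under the alternatives, and its ranges cover the spread between libraries, not the choice of length. With the longest transcript as length, mean Tnfrsf14 was 29.81 TPM and Tnfrsf9 29.91, beside 38.09 and 29.40 in the main setting. Tnfrsf12a, at 20.64 TPM, then lay below Tnfrsf1a at 25.01 and Tnfrsf13b at 22.58. No paired analysis was possible because there was 1 group. Depth limits members under about 1 TPM, most of all those with few fragments, such as Cd70 with 3 in total. For those with few, 1 fragment moves the level. Tnfrsf8 and Tnfrsf19, also under 1 TPM on mean level, had 129 and 133 fragments. The test of spread left out 15 members, or 10 with a filter of 10 fragments in total. The labels give 1 donor identifier, but Xist and Ddx3y show that animals of both sexes contributed, and how many is not given. A pseudocount of 0.1 moved 18 of 26 pair ratios, all in the same direction as with 1. CPM in place of TPM moved 23 of 26 and the longest transcript as length 17, with none reversed. With CPM the log2 difference went from -2.58 to -1.37 for Tnf with Tnfrsf1b, and from -3.58 to -2.115 for Lta with Tnfrsf1b. The SD given with a pair ratio does not cover the choice of length.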
